A study of Homo sapiens with 15 samples.

Results

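The glucocorticoid receptor and 9 genes known to respond to it were followed through adipogenic differentiation and a later medium in ASC52 cells. The members were taken by gene symbol, and 8 of the 10 had a named probe set: the receptor gene NR3C1 and the target genes TSC22D3, ZBTB16, KLF9, DUSP1, MAOA, GLUL and CRISPLD2. FKBP5 and PER1 had none in the annotation used and were not analysed here. The 8 measured members stood among 17687 genes in all, each had 1 probe set, and none was left out for low signal.

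ASC52 is an established human line of mesenchymal stem cells from adipose tissue that carries telomerase reverse transcriptase, and all 3 groups were grown from it. DED cells were put into StemPRO Adipogenesis Differentiation medium 3 days after seeding, kept there for 14 days, and then cultured for 7 days in medium conditioned by MDA-MB-231 cells, a human breast carcinoma line, in RPMI with 10% fetal bovine serum. MA cells had the same differentiation and then 7 days in RPMI with 10% serum that was not conditioned. MSC cells, seeded in MesenPRO RS, were not differentiated, and when they were harvested is not given in the sources used here, nor is the composition of the differentiation medium. There were 5 arrays per group, all of 1 line. Separate cultures are not mentioned in the labels, so the p-values cover only the spread among these samples, and that spread may be technical.

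Glucocorticoids such as cortisol and dexamethasone enter the cell and bind a receptor held in the cytoplasm by heat shock proteins. The loaded receptor moves to the nucleus, binds DNA at glucocorticoid response elements and raises or lowers transcription nearby. A glucocorticoid is a usual part of mixtures that turn precursor cells into fat cells in culture, where it helps to start the adipogenic program. The comparison addressed here is whether transcripts that this hormone is known to raise were higher than in MSC in both later media, after differentiation. None of the 3 groups was sampled at the end of differentiation, and MSC cells had another medium. A lasting hormone response therefore cannot be told apart from effects of differentiation or of the later medium.

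The palindromic response element was searched for in promoters, since it is the DNA form that the receptor reads. The RefSeq promoter table (GRCh38.p14, 250 bases before to 50 after each start) held 9 of the 10 members with 20 start sites, and ZBTB16 was not among them. The element was taken as GNACA and TGTNC with 3 bases between them, and its hexamer as AGAACA. The hexamer can overlap the longer element but cannot lie wholly within it. The cAMP response element was taken as TGACGTCA, and each was searched on both strands. A gene was counted where any of its start sites held the match, and which start these cells used was not examined. The long element was found in 0.48% of the 27305 genes of the table, the hexamer in 17.5% and the cAMP element in 2.25%. None of the 9 members held the long element in these windows. It is so rare there that its absence from 9 genes says little, and bases further away were not searched. The hexamer was held by 1 member (FKBP5) and the cAMP element by 1 (DUSP1). The 250 bases before the DUSP1 start (chr5:172771196-172771445, minus strand) are shown because DUSP1 is the member with such a match, and the capitals mark the cAMP element.
DUSP1: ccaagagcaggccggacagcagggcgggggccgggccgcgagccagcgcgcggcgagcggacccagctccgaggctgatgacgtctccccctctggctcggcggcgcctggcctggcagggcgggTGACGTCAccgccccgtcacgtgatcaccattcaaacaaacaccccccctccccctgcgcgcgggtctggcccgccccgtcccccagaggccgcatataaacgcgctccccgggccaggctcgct

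Among 25 further glucocorticoid-induced genes with a promoter in the table, 5 held the hexamer (ACSL1 at 2 places), beside 17.5% of all genes. Among 10 genes of the cAMP response, PPARGC1A held the long element, 3 held the hexamer and 2 the cAMP element. The hexamer was also in 3 of 7 ligand supply genes, 3 of 13 receptor partners and 0 of 8 repressed genes, and 1 of the receptor partners held the cAMP element. Short windows are printed because these genes moved in different directions, as the values further on show, and the capitals mark the match as read on the strand of the gene. They lie at chr4:24473049-24473073 for PPARGC1A, chr12:7503741-7503758 for CD163, chr3:187736460-187736477 for BCL6, chr4:184812380-184812397 for the site of ACSL1 nearer its start, chr7:95596751-95596766 for PDK4 and chr6:134177845-134177862 for SGK1, all on the minus strand of GRCh38.p14. The PPARGC1A, ACSL1 and PDK4 sites lie before the start and those of CD163, BCL6 and SGK1 after it.
PPARGC1A: gctgtaGTACAGGCTGTCCccggca
CD163: tttagaAGAACAtttcta
BCL6: ggttaaAGAACAgcctag
ACSL1: aatcacTGTTCTatgaat
PDK4: tcccTGTTCTtcccac
SGK1: cataacAGAACAgggata

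Values are log2 intensities, on which 1 unit is a doubling of signal, and levels are compared only within a probe set. Background is described by 612 negative control probe sets, whose median was 4.80 and whose 95th percentile was 8.31. The size of a difference whose lower group lies in that range depends on background. Arrays of a group correlated across genes at no less than 0.9816 in DED, 0.9918 in MA and 0.9923 in MSC. The 7 adipocyte markers checked were higher in both differentiated groups than in MSC, with list means of 10.2 to 11.8 in DED, 13.2 to 13.3 in MA and 5.64 to 5.91 in MSC. Their highest value in DED was that of array 1 and their lowest that of array 3. The signal of a gene in these bulk samples cannot tell fewer expressing cells from less RNA per cell.

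All 7 target genes measured were higher in MA than in MSC, and all 7 were higher in DED than in MSC. In both comparisons the arrays of the groups did not overlap for any of the 7, as for 12.4% of all genes in each. Their median log2 difference was 3.84 for MA minus MSC and 4.02 for DED minus MSC, beside medians of -0.002 and 0.028 over all genes. In the first of these comparisons 15.4% of all genes passed as higher in MA (limma adjusted p under 0.05), and in the second 17.1% passed as higher in DED. Both were passed by 9.29% of all genes, and by the 7 target genes. These 2 comparisons share the MSC arrays.

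NR3C1, the gene of the receptor itself, moved the other way. Its values were 10.46, 10.67, 11.03, 10.91 and 10.98 in DED arrays 1 to 5. In MA they were 11, 10.73, 11.08, 11.09 and 10.72, and in MSC 11.74, 11.79, 11.48, 11.72 and 11.82. Every MSC array lay above every array of the other groups, while DED and MA overlapped. NR3C1 fell by 0.79 in MA relative to MSC (SE 0.13, adjusted p = 4.7e-05) and by 0.90 in DED relative to MSC (SE 0.13, adjusted p = 8.6e-06), where 17.6% and 16.4% of all genes passed as lower, and 14.6% and 12.7% were lower without overlap. The log2 difference between DED and MA was -0.11, with a 95% interval of -0.38 to 0.15 (adjusted p = 0.58). The gene was read by 1 probe set, so receptor isoforms were not told apart.

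**Figure D1:**
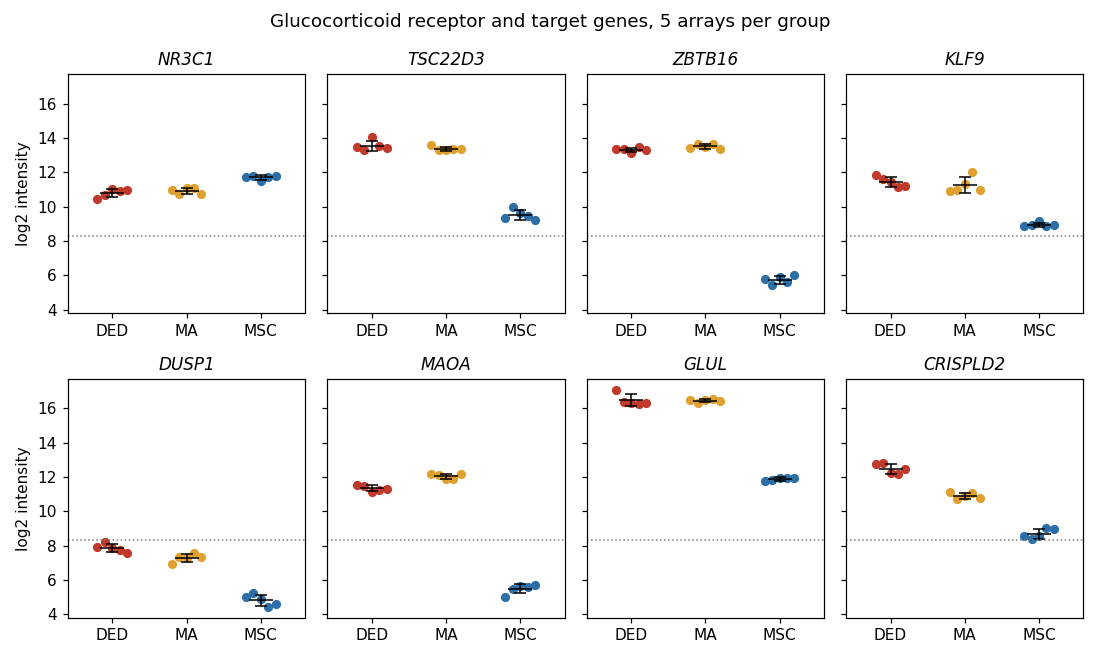
Log2 intensity of the 8 measured members in DED, MA and MSC. Points are single arrays in order of replicate number, bars are the mean and SD of 5 arrays, and the dotted line marks 8.31, the negative control 95th percentile. The 7 target genes lie higher in DED and MA than in MSC, NR3C1 lies lower, and all DUSP1 values are under the line.

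Transcription factors and regulators came first among the targets. ZBTB16, a zinc finger repressor also called PLZF, had the largest difference of the members. It measured 13.36, 13.38, 13.15, 13.47 and 13.30 in DED arrays 1 to 5, against 13.43, 13.68, 13.50, 13.66 and 13.36 in MA. In MSC it measured 5.79, 5.44, 5.91, 5.60 and 6.04, all under 8.31. The DED and MA arrays overlapped and both stood far above MSC. ZBTB16 rose by 7.77 in MA relative to MSC (SE 0.12, adjusted p = 1.2e-19), the 12th largest rise of all genes, and by 7.58 in DED relative to MSC (SE 0.12, adjusted p = 9.8e-20), the 6th largest. DED minus MA was -0.19, with a 95% interval of -0.45 to 0.06 (adjusted p = 0.28).

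TSC22D3 encodes GILZ, a leucine zipper protein that binds and restrains inflammatory transcription factors. Its DED values were 13.48, 13.31, 14.04, 13.52 and 13.42, and its MA values were 13.59, 13.28, 13.30, 13.37 and 13.34. MSC arrays gave 9.36, 9.97, 9.64, 9.48 and 9.24. DED array 3 was the highest of all, the other DED arrays lay within the MA range, and MSC stood apart. TSC22D3 rose by 3.84 in MA relative to MSC (SE 0.15, adjusted p = 5.3e-14) and by 4.02 in DED (SE 0.15, adjusted p = 1.5e-14). Between DED and MA the log2 difference was 0.18 with a 95% interval of -0.13 to 0.49 (adjusted p = 0.43), and it was 0.06 without DED array 3.

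KLF9, a Kruppel-like zinc finger factor that the hormone induces in many tissues, was at 11.88, 11.63, 11.42, 11.16 and 11.20 in DED. In MA it was at 10.94, 10.98, 11.30, 12.04 and 10.97, and in MSC at 8.86, 8.94, 9.17, 8.87 and 8.94. MA array 4 was the highest of the 15, and the DED range lay inside the MA range. KLF9 rose by 2.29 in MA relative to MSC (SE 0.18, adjusted p = 4e-09) and by 2.502 in DED (SE 0.18, adjusted p = 8.7e-10). DED minus MA was 0.21, with a 95% interval of -0.17 to 0.60 (adjusted p = 0.46). Without MA array 4 that difference was 0.41 and passed the test (adjusted p = 0.044), so 1 array decided this call.

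DUSP1 encodes a phosphatase that switches off MAP kinases and is known to answer to cAMP and serum as well as to glucocorticoids. It measured 7.94, 8.24, 7.86, 7.75 and 7.58 in DED, against 6.92, 7.33, 7.30, 7.59 and 7.35 in MA. The MSC values were 5.02, 5.22, 4.87, 4.43 and 4.59. No array reached 8.31, and the size of these differences depends on background. DUSP1 rose by 2.47 in MA relative to MSC (SE 0.16, adjusted p = 1.3e-10) and by 3.05 in DED (SE 0.16, adjusted p = 4e-12). It was higher in DED than in MA by 0.58 (SE 0.16, adjusted p = 0.0099), with the lowest DED array just under the highest MA array.

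The remaining targets are enzymes and a secreted protein. MAOA, the mitochondrial monoamine oxidase that breaks down serotonin and noradrenaline, was the target that was lower in DED than in MA. Its values were 11.54, 11.50, 11.11, 11.25 and 11.28 in DED, against 12.15, 12.09, 11.87, 11.86 and 12.16 in MA. MSC arrays gave 5.03, 5.46, 5.67, 5.61 and 5.71, under 8.31. The 3 groups did not overlap, with MA highest and MSC lowest. MAOA rose by 6.53 in MA relative to MSC (SE 0.13, adjusted p = 4.9e-18) and by 5.84 in DED (SE 0.13, adjusted p = 2.1e-17). It fell by 0.69 in DED relative to MA (SE 0.13, adjusted p = 0.00053).

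GLUL, glutamine synthetase, joins ammonia to glutamate. It measured 17.09, 16.36, 16.29, 16.26 and 16.32 in DED and 16.46, 16.31, 16.46, 16.53 and 16.40 in MA. In MSC it measured 11.74, 11.83, 11.95, 11.95 and 11.96. DED array 1 stood above all others, and the other DED arrays overlapped with MA. GLUL rose by 4.55 in MA relative to MSC (SE 0.14, adjusted p = 1.7e-15) and by 4.58 in DED (SE 0.14, adjusted p = 9.8e-16), a fold of 23.4 and 23.9. DED minus MA was 0.03 with a 95% interval of -0.25 to 0.32 (adjusted p = 0.91), and it was -0.13 without DED array 1 (adjusted p = 0.4). Array 1 was also the DED array with the highest mean of the adipocyte markers, 11.81 against 10.19 to 10.80 in the other DED arrays, and the part of this in the GLUL value was not tested.

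CRISPLD2, a secreted protein of the cysteine-rich CAP family known as a glucocorticoid-induced gene of airway smooth muscle, had the largest difference between the later media. It measured 12.75, 12.82, 12.23, 12.16 and 12.46 in DED, against 11.13, 10.73, 10.88, 11.06 and 10.77 in MA. MSC arrays gave 8.54, 8.38, 8.55, 9 and 8.98. The groups stood in 3 separate steps, with DED highest and MSC lowest. CRISPLD2 rose by 2.22 in MA relative to MSC (SE 0.15, adjusted p = 3.8e-10) and by 3.79 in DED (SE 0.15, adjusted p = 7.2e-14). It was higher in DED than in MA by 1.57, a fold of 2.97 (SE 0.15, adjusted p = 1.3e-07).

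**Figure D2:**
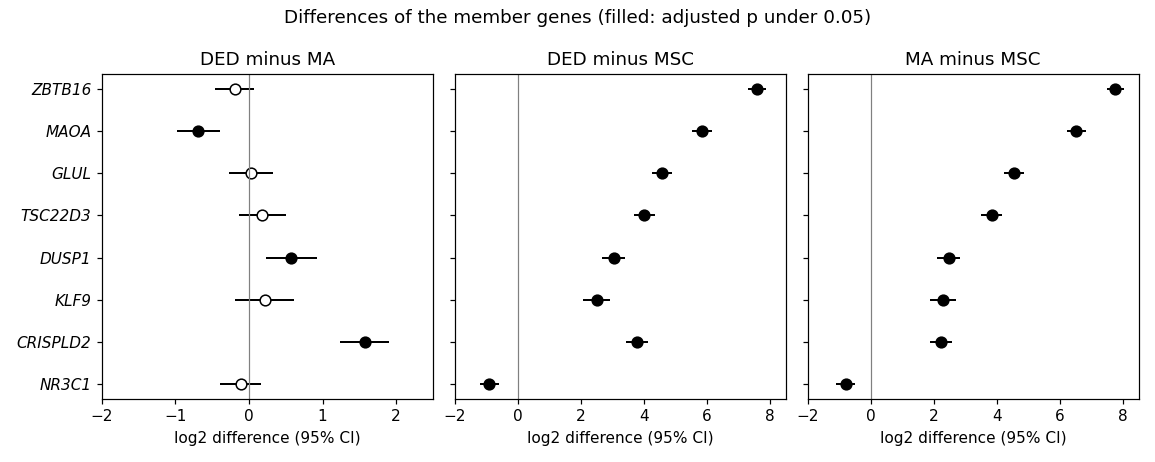
Log2 differences of the 8 measured members with 95% intervals, for DED minus MA, DED minus MSC and MA minus MSC. Filled points passed the test over all genes. The left panel has a narrower axis: CRISPLD2 and DUSP1 lie above 0, MAOA lies below it, and the intervals of the other members include 0.

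Between the later media, then, CRISPLD2 and DUSP1 were higher in DED, MAOA was lower, and 4 of the 7 target genes did not pass the test. Of all genes 12.9% passed as higher in DED than in MA and 13.0% as lower, and 8.61% and 9.48% did so without overlap, as CRISPLD2 and MAOA did. For the 4 that did not pass (ZBTB16, TSC22D3, KLF9 and GLUL) the 95% intervals of DED minus MA together ran from -0.45 to 0.60. The median difference of the 7 was 0.18, beside 0.018 over all genes. Set against MSC, the DED difference of each target was 89.4% (MAOA) to 171% (CRISPLD2) of its MA difference on the log2 scale, with a median of 105%. The same ratio was 37% to 85.4% for the 7 adipocyte markers, which were lower in DED than in MA in all 7 cases (median DED minus MA -2.75). It was also taken for the genes of a wider glucocorticoid-induced list, described next, with an MA difference from MSC of at least 1. There it ran from 26.2% (CORIN) and 44.5% (PDK4) to 158% (BCL6) and 204% (MT1X). Between these lay, among others, APOD (78.5%), ACSL1 (92%), KLF15 (99.9%) and GPX3 (115%). The ratio was not taken over all genes. A ratio depends on background where the MSC mean was under 8.31. Such were ZBTB16, MAOA, DUSP1, the 7 adipocyte markers and several genes of the wider list, with CORIN and PDK4 among them. All these ratios share the MSC arrays, and no test was made of one list against another.

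A wider list of glucocorticoid-induced genes held 30 symbols, of which 29 were measured, and it moved less uniformly. In MA against MSC 16 rose, 4 fell and 9 did not pass the test, with a median difference of 0.56, while 15.4% of all genes rose and 17.6% fell. In DED against MSC 18 rose, 3 fell and 8 did not pass, with a median of 1.04, while 17.1% of all genes rose and 16.4% fell. There were 15 that rose in both, beside 9.29% of all genes. In each of these comparisons, every gene of the list that did not pass was under 8.31 in all arrays of both groups. For such genes an absent response cannot be told from an absent signal. The largest rises in MA were those of APOD, a lipocalin that carries small lipids, by 7.45 (SE 0.49), GPX3, a secreted glutathione peroxidase, by 6.11 (SE 0.38), ACSL1, which activates fatty acids, by 5.88 (SE 0.17) and SAMHD1, which breaks down deoxynucleotides, by 4.84 (SE 0.18). In DED relative to MSC the same ranking gave GPX3 at 7.02 (SE 0.38), APOD at 5.85 (SE 0.49), CD163 at 5.46 (SE 0.25) and ACSL1 at 5.41 (SE 0.17), with adjusted p-values from 2e-15 to 6.9e-09.

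SGK1, a kinase of salt handling and cell survival that is among the best known targets of the receptor, was lower after differentiation. It measured 8.06, 7.83, 6.95, 6.99 and 6.78 in DED and 7.32, 7.24, 7.51, 6.95 and 7.15 in MA, against 10.01, 9.57, 10.14, 9.83 and 9.94 in MSC. No DED or MA array reached the MSC range or 8.31. SGK1 fell by 2.66 in MA relative to MSC (SE 0.21, adjusted p = 2.1e-09) and by 2.58 in DED (SE 0.21, adjusted p = 3e-09), and DED minus MA was 0.09 with a 95% interval of -0.34 to 0.52. The clock genes PER3 and PER2, related to PER1, were also lower. PER3 fell by 2.79 in MA and by 2.5 in DED relative to MSC (SE 0.22 each), and PER2 by 2.02 and 1.07 (SE 0.15 each). PER2 was under 8.31 in all arrays and PER3 in all DED and MA arrays. The size of the falls of SGK1, PER3 and PER2 thus depends on background. DDIT4, an inhibitor of mTORC1 that stress also induces, fell by 0.77 in MA relative to MSC (SE 0.22, adjusted p = 0.0086), but was higher in DED than in MSC by 1.04 (SE 0.22, adjusted p = 0.00065).

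**Figure D3:**
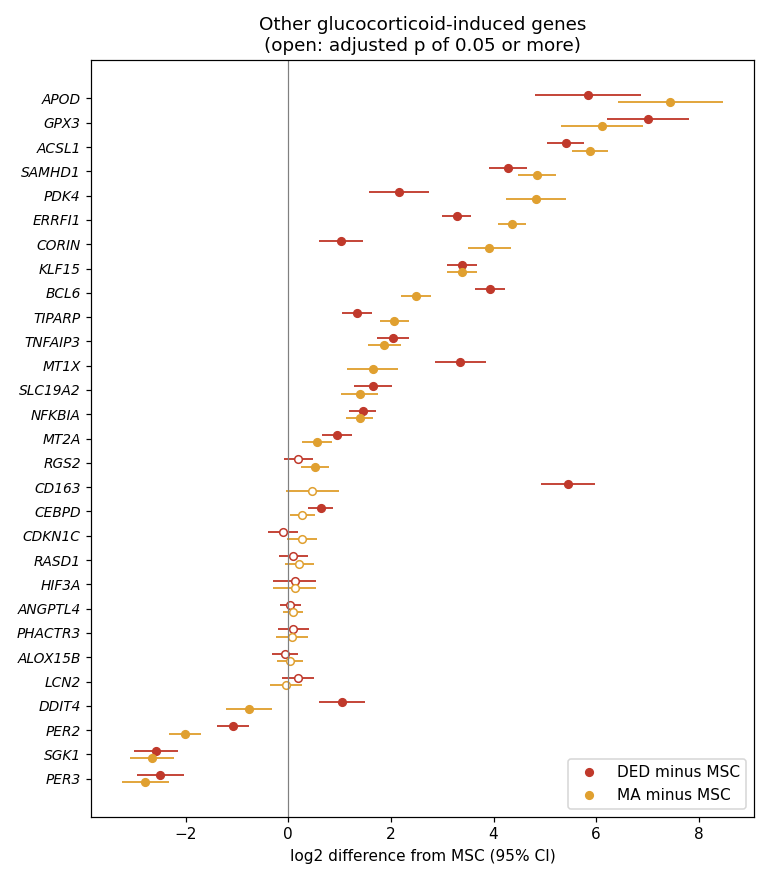
Log2 differences from MSC of 29 other glucocorticoid-induced genes in DED and in MA, with 95% intervals, ordered by MA minus MSC. Filled points passed the test. APOD, GPX3 and ACSL1 lie far to the right in both, SGK1 and PER3 far to the left in both, and CD163 lies apart from 0 in DED.

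Conditioned against control medium, 7 of these 29 genes were higher in DED, 7 were lower and 15 did not pass the test, where 12.9% of all genes were higher and 13.0% lower. The fall of SAMHD1 (-0.564, adjusted p = 0.023) was lost without MA array 4 or DED array 5. It was also lost with only the compared groups fitted (adjusted p from 0.05 to 0.052 in these settings). The falls of APOD and ACSL1 depended on the setting as well, as given below. CD163, the scavenger receptor for haptoglobin and hemoglobin that glucocorticoids raise in macrophages, was at 10.89, 11.78, 10.98, 12.09 and 12.47 in DED. It was at 7.10, 6.38, 6.59, 6.87 and 6.34 in MA and at 5.99, 6.15, 6.69, 6.08 and 6.02 in MSC. Only the DED arrays exceeded 8.31, the negative control percentile, and DED minus MA was 4.99 (SE 0.25, adjusted p = 1.6e-11). Of 5 macrophage markers checked, CD14 was higher in DED than in MA by 1.40 (SE 0.23, adjusted p = 7.6e-05) and 4 did not pass. Their list mean was 6.47 to 6.67 in DED, 6.12 to 6.41 in MA and 6.11 to 6.44 in MSC, all under that percentile. CD14, PTPRC and AIF1 were under it in all arrays, and the size of the CD14 difference depends on background. The part of other cells in the CD163 value was not tested.

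DDIT4 was higher in DED than in MA by 1.81 (SE 0.22), the metallothionein MT1X by 1.71 (SE 0.24) and BCL6, a transcriptional repressor, by 1.44 (SE 0.14), with adjusted p-values of 1.9e-06, 1.6e-05 and 1e-07. Lower in DED were CORIN, a protease that activates natriuretic peptides, by -2.89 (SE 0.20), PDK4, the kinase that holds back pyruvate oxidation, by -2.68 (SE 0.28), and ERRFI1, an inhibitor of the EGF receptor, by -1.08 (SE 0.13). Their adjusted p-values were 1.1e-09, 3.4e-07 and 3.4e-06. CORIN was under 8.31 in all DED arrays and PDK4 in all of them but array 1 (8.42). The size of the CORIN and PDK4 falls thus depends on background. APOD was at 15.88, 15.01, 11.45, 14.13 and 14.22 in DED and at 15.69 to 15.81 in MA. It was lower in DED by -1.60 (SE 0.49, adjusted p = 0.02), by -0.93 without DED array 3, and its adjusted p was 0.071 with an intensity trend and robust fit. GPX3 was not past the test between DED and MA (0.91, SE 0.38, adjusted p = 0.091), and was 1.34 without DED array 3 (adjusted p = 0.0013).

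Of the genes whose windows are shown above, CD163 and BCL6 were higher in DED than in MA, PDK4 was lower, and the 95% interval of SGK1 included 0. ACSL1 was lower in DED by -0.47 (SE 0.17, adjusted p = 0.047), and lost this call without any 1 of 9 arrays, which were MSC array 5, MA arrays 1 to 5 and DED arrays 3, 4 and 5 (adjusted p from 0.054 to 0.14), and also with quantile normalization, all probe sets tested or only the compared groups fitted (0.052 to 0.063). PPARGC1A, a coactivator of mitochondrial genes, was at 7.47 to 8.61 in DED, 7.56 to 8.66 in MA and 5.28 to 6.48 in MSC. It rose by 2.02 in MA (SE 0.25, adjusted p = 1.7e-06) and by 1.86 in DED relative to MSC (SE 0.25).

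Ligand supply was described by 8 genes. HSD11B1, the enzyme that turns inactive cortisone into cortisol inside cells, was at 10.33, 10.59, 9.62, 10.47 and 10.83 in DED and at 10.16, 9.95, 9.80, 9.88 and 10.09 in MA. In MSC it was at 6.44, 6.57, 6.84, 6.85 and 6.57. Both differentiated groups stood apart from MSC, and the lowest DED array, array 3, lay under the MA range. HSD11B1 rose by 3.32 in MA (SE 0.17, adjusted p = 4.2e-12) and by 3.71 in DED relative to MSC (SE 0.17, adjusted p = 4.8e-13). DED minus MA was 0.39 (SE 0.17, adjusted p = 0.10) and 0.58 without DED array 3 (adjusted p = 0.0021). H6PD, which supplies HSD11B1 with NADPH, rose by 0.90 in MA (SE 0.11, adjusted p = 1.7e-06) and by 0.63 in DED relative to MSC (SE 0.11, adjusted p = 0.00013).

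HSD11B2, which inactivates cortisol, stayed under 8.31 in all arrays, at 4.57 to 5.03 in DED, 5.30 to 6.31 in MA and 4.55 to 5.30 in MSC. It was higher in MA than in MSC by 0.86 (SE 0.18, adjusted p = 0.00062) and lower in DED than in MA by -0.87 (SE 0.18, adjusted p = 9e-04). CYP3A5, a cytochrome P450 that hydroxylates steroids, had the same order, also with all group means under 8.31, with MA minus MSC at 1.13 and DED minus MA at -1.16 (SE 0.22 each). Of the 8 genes 4 rose in MA relative to MSC and 4 did not pass (15.4% of all genes rose), and 2 rose and 1 fell in DED relative to MSC (17.1% and 16.4% of all genes). That fall, of the steroid reductase gene SRD5A1, did not pass without DED arrays 1 and 3 together. Between DED and MA 2 fell and 6 did not pass (13.0% of all genes fell).

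**Figure D4:**
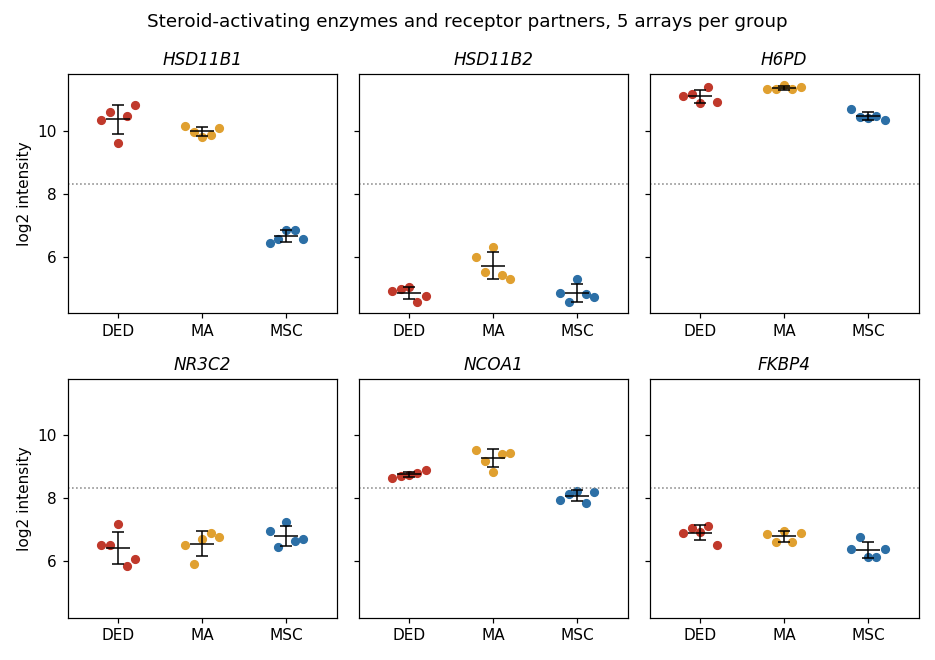
Log2 intensity of 3 enzymes of glucocorticoid supply and 3 receptor partners in DED, MA and MSC. Points are single arrays in order of replicate number, bars are the mean and SD of 5 arrays, and the dotted line marks 8.31, the negative control 95th percentile. HSD11B1 lies above the line in DED and MA and below it in MSC, and HSD11B2, NR3C2 and FKBP4 lie below it in all arrays.

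Receptor partners and coregulators changed in both directions. Of 12 measured genes 4 rose and 2 fell in MA relative to MSC, where 15.4% of all genes rose and 17.6% fell. In DED relative to MSC 5 rose and 2 fell (17.1% and 16.4% of all genes), and in DED relative to MA 2 rose and 2 fell (12.9% and 13.0%). Several of these calls rested on single arrays: the 4 rises were 2 without MSC array 4 or MA array 3, the 2 rises in DED relative to MA were 4 without DED array 1, the 5 rises were 3 without MSC array 2 or DED array 4, and the 2 falls in DED relative to MSC were 1 without any of MSC arrays 1 and 2 and DED arrays 1, 2 and 5. NCOA1, the steroid receptor coactivator SRC-1, had the largest rise in MA relative to MSC, by 1.196 (SE 0.13, adjusted p = 2.5e-07), and was lower in DED than in MA by -0.52 (SE 0.13, adjusted p = 0.0045). The cochaperone PTGES3, or p23, was lower in DED than in MA by -0.46 (SE 0.12, adjusted p = 0.0086). The rises in DED relative to MA were those of STIP1, the cochaperone that links HSP70 and HSP90, by 0.58 (SE 0.14, adjusted p = 0.0035), and SMARCA4, the ATPase of chromatin remodelling complexes, by 0.35 (SE 0.10, adjusted p = 0.012). Both of these fell in MA relative to MSC, SMARCA4 with a difference of -0.64 (adjusted p = 3.1e-05) and STIP1 with -0.54 (adjusted p = 0.0043).

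The coactivator NCOA2 rose by 0.46 in MA relative to MSC (SE 0.11, adjusted p = 0.0017) and the chaperone HSP90AB1 by 0.27 (SE 0.09, adjusted p = 0.022). With quantile normalization HSP90AB1 did not pass (0.18, adjusted p = 0.14). Relative to MSC the largest rises in DED were those of the coactivators CRTC2, by 0.68 (SE 0.19, adjusted p = 0.008), and NCOA1, by 0.68 (SE 0.13).

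FKBP4, the immunophilin that helps the receptor move to the nucleus, was 6.91 ± 0.229 in DED, 6.79 ± 0.173 in MA and 6.37 ± 0.253 in MSC (mean ± SD, n = 5). It was higher than in MSC by 0.54 in DED (SE 0.14, adjusted p = 0.0041) and by 0.42 in MA (SE 0.14, adjusted p = 0.024), the second between 0.055 and 0.067 without any 1 of MSC arrays 3 and 4 and MA arrays 3 and 5. Its DED minus MA was 0.12 (95% interval -0.17 to 0.41). NR3C2, the mineralocorticoid receptor, which also binds cortisol, was 6.42 ± 0.501 in DED, 6.56 ± 0.396 in MA and 6.80 ± 0.304 in MSC. It passed none of the 3 tests (limma adjusted p of 0.21 to 0.72, and none at an unadjusted p under 0.05), with DED minus MSC at -0.38 and at -0.57 without DED array 3 (adjusted p = 0.034).

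Genes that glucocorticoids repress were described by 11 measured members of a list of 12. In MA relative to MSC 4 fell and 1 rose (17.6% and 15.4% of all genes). The collagenase MMP1 fell by 2.70 (SE 0.19), the stromelysin MMP3 fell by 2.004 (SE 0.22) and the chemokine CCL2 fell by 0.94 (SE 0.16). The fall of ICAM1, an adhesion molecule, was lost without any 1 of 6 arrays (adjusted p = 0.034, then 0.052 to 0.087), namely MSC arrays 1, 3 and 5 and MA arrays 3, 4 and 5, and the rise of CXCL8 (adjusted p = 0.04) without any 1 of 8, which were MA arrays 1 to 4 and all MSC arrays but array 2 (0.054 to 0.1). In DED relative to MA 4 of the 11 were higher and 7 did not pass the test (12.9% of all genes were higher): the cytokine IL6 by 2.76 (SE 0.15), CCL2 by 2.55 (SE 0.16), MMP1 by 1.11 (SE 0.19) and CXCL8 by 0.97 (SE 0.18). The list mean was 6.94 to 7.13 in DED, 6.21 to 6.40 in MA and 6.74 to 6.96 in MSC. Set against MSC, 4 rose and 2 fell in DED (17.1% and 16.4% of all genes). ICAM1 was at -0.23 (adjusted p = 0.59), and passed as lower without DED array 3 (-0.61, adjusted p = 0.002). The rises were those of IL6 by 2.37 (SE 0.15), CCL2 by 1.61 (SE 0.16), CXCL8 by 1.46 (SE 0.18) and PTGS2, the inducible cyclooxygenase, by 0.48 (SE 0.14, adjusted p = 0.014). MMP3 fell by 1.93 (SE 0.22, adjusted p = 5.9e-07) and MMP1 fell by 1.60 (SE 0.19, adjusted p = 1.3e-06), so MMP1 was above MA but below MSC in DED. Signals here were dim: IL6 and PTGS2 were under 8.31 in all arrays, and CXCL8 in all but DED array 2 (8.32). ICAM1 was under 8.31 in all arrays but DED array 3 (9.18). MMP1 and MMP3 were under 8.31 in all DED and MA arrays, and CCL2 in all MA arrays. The size of these differences depends on background.

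The cAMP response was followed because DUSP1 belongs to it. Of 9 measured genes 3 rose in MA relative to MSC and 6 did not pass (15.4% of all genes rose). In DED relative to MSC 5 rose and 1 fell (17.1% and 16.4% of all genes), and the fall, of PDE4B, did not pass without any 1 of MSC arrays 2 and 3 and DED arrays 1, 2 and 3 (adjusted p = 0.034, then 0.056 to 0.11). In DED relative to MA 4 rose and 1 fell (12.9% and 13.0% of all genes). NR4A3, an orphan nuclear receptor, was at 8.59 to 9.60 in DED, 6.34 to 6.83 in MA and 5.36 to 5.94 in MSC. DED minus MA was 2.63 for NR4A3 (SE 0.19, adjusted p = 1.6e-09), 1.91 for the stress factor ATF3 (SE 0.18, adjusted p = 7.6e-08), 1.63 for the phosphodiesterase PDE4D (SE 0.23, adjusted p = 1.5e-05) and 1.03 for NR4A1 (SE 0.13, adjusted p = 3.2e-06), while PDE4B was at -0.75 (SE 0.17, adjusted p = 0.0019). NR4A1 and PDE4B were under 8.31 in all arrays, and NR4A3, ATF3 and PDE4D in all MA and MSC arrays.

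The genes whose values ran closest to a member over the 15 arrays were found by the root mean square distance after each gene was centred on its own mean. For NR3C1 they were RABGEF1 (0.131), TULP3 (0.137) and HNRNPH1 (0.138). For ZBTB16 they were A2M (0.42), CPM (0.485) and CHRDL1 (0.523). A2M averaged 12.23 in DED, 11.87 in MA and 4.58 in MSC. The distances are a description over arrays of 3 groups that differ widely.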

How the data were processed

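The authors deposited 1 table of log2 intensity for 15 arrays. The submitters' processing notes name RMA and the Transcriptome Analysis Console. Because RMA scales arrays to each other, a group-wide shift of every gene is lost. For these tools no version, and for the array no build, is given in the sources used here. Groups came from the sample titles. Of 24351 probe sets 17709 carried 1 gene symbol, and the highest mean was kept for the 20 genes with several, which left 17687 genes.

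The test was limma 3.58.1 (R 4.3.3, 1 mean per group, all 15 arrays in 1 fit, two-sided, Benjamini-Hochberg over all genes per comparison, threshold 0.05), tested on simulated data. Having 5 arrays per group limits the precision. Members and lists were chosen with earlier results of these data known. Named genes are all members, up to 4 rises and 4 falls per list and comparison, and HSD11B1, HSD11B2, NR3C2, FKBP4 and SGK1. CD14, PTPRC and AIF1, and ACSL1, PPARGC1A and GPX3 where outside the ranks, were added for the results they stand beside. The alternatives are in the closing section. Figures used Python 3.11.15 and matplotlib 3.10.9.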

Additional observations from a re-analysis of the deposited data

Results flagged for a closer look

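Among 49 genes, the measured members and the list genes that the naming rule gave, 147 groups of 5 arrays were checked for a highest or lowest value far from the others, and 8 were found, where chance flags about 1 in 20 groups. Of the members, GLUL was 17.09 in DED array 1 against 16.26 to 16.36 in the other DED arrays, TSC22D3 was 14.04 in DED array 3 against 13.31 to 13.52, and KLF9 was 9.17 in MSC array 3 against 8.86 to 8.94. PDK4 was 8.42 in DED array 1 against 6.80 to 7.10, and ICAM1 was 9.18 in DED array 3 against 7.12 to 7.63. CD163 was 6.69 in MSC array 3 against 5.99 to 6.15, DDIT4 was 10.26 in MA array 3 against 10.62 to 10.73, and MMP3 was 6.72 in MA array 1 against 6.23 to 6.30.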

How the results depend on the processing

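Each difference was recomputed under 25 other settings: quantile normalization, arrays shifted to 1 median, dim genes left out, all probe sets singly, the lowest probe set, array weights, a robust fit with intensity trend, a fit of the compared groups alone, a replicate block, each array left out, and, chosen after seeing the data, DED arrays 1 and 3 left out together. Neither probe set setting could alter the difference of a member, which has 1 probe set each, nor could leaving out arrays of the group not compared. Such settings could still alter the adjusted p of a member, and under them no member call changed. Leaving out dim genes, the robust fit with trend, the fit of the compared groups alone and the replicate block also left member differences unchanged. These could alter only the adjusted p, so direction was fixed under them, but they are counted among the 424 here. Of the 424 member differences outside the probe set settings and the arrays not compared, 423 kept their side of the threshold and, where past it, their direction. The exception was KLF9 in DED relative to MA without MA array 4 (0.411). The counts of target genes past the test, 7 in MA and 7 in DED relative to MSC, and 2 higher and 1 lower in DED relative to MA, were the same in every setting except that this one made 3 higher. DUSP1 in DED relative to MA ran from 0.481 to 0.649 (adjusted p 0.0064 to 0.041). Deviations of same-numbered arrays correlated between -0.108 and 0.087, over 0.1 in 0 of 15 pairs, so the numbers were not taken to pair the samples. With the replicate block DUSP1 was at 0.576, and no member call changed. Dim signal limits DUSP1, and the MSC levels of ZBTB16 and MAOA.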
